A study of Homo sapiens with 18 samples.

Results

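The genes described here are 33 that act in the Fanconi anaemia pathway, in homologous recombination and in the DNA damage checkpoint. They were picked by symbol, and all 33 were found among the 60656 genes of the deposited count table. RNA was sequenced from U2932 and Ly1, a pair of human cell lines grown from diffuse large B-cell lymphoma, which the labels class as ABC (activated B-cell type) for U2932 and GCB (germinal centre B-cell type) for Ly1. Each line was exposed to SGC-GAK-1, a small-molecule inhibitor of the cyclin G-associated kinase GAK, at 1 µM for 12 h or 24 h, or to the vehicle DMSO, with 3 libraries in each of the 6 groups. The labels give no time for DMSO, so both treated times share the same DMSO libraries, and U2932 and Ly1 were kept in different culture media (RPMI 1640 and IMDM). Each lymphoma subtype is represented by 1 line, so subtype, line and medium cannot be told apart. The labels number the replicates but do not say that they are separate cultures, so p-values measure the spread between these libraries, which may be technical.

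As background, the Fanconi core complex recognises stalled replication forks at DNA crosslinks and attaches ubiquitin to the FANCI-FANCD2 pair, which then directs the crosslink to be cut and repaired. BRCA1, BRCA2 and their partners act on resected DNA so that the break can be copied from the sister chromatid. ATM and ATR are the kinases that sense breaks and single-stranded DNA, and they halt the cell cycle through CHEK2 and CHEK1. Many of these genes are transcribed mostly in cells preparing for or passing through S phase, and germinal centre B cells, from which such lymphomas derive, divide fast while their DNA is being cut and mutated.

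Libraries held 22549853 to 29386802 counts, so that 3 counts correspond to 0.102 to 0.133 CPM (a library's counts divided by its scaled total). All 33 genes passed the filter on low counts in every fit, with means over the 18 libraries between 4.39 and 230.4 CPM. The B-cell markers (MS4A1, CD79A, CD79B, PAX5, CD22 and EBF1) were all above 1 CPM in both lines and summed to 2230.5 to 2676 CPM in U2932 and 2632 to 3125 CPM in Ly1. Summed T and NK cell markers reached at most 1.45 CPM in U2932 and 2.16 CPM in Ly1, and myeloid markers 1.20 CPM in U2932 and 0.244 CPM in Ly1. The 5 fibroblast and endothelium markers summed to 4.53 to 6.35 CPM in U2932, with PECAM1 (2.67), DCN (1.65) and COL1A1 (1.24) above 1 CPM, and to 2.35 to 5.06 CPM in Ly1, with PECAM1 (3.43) above 1 CPM, while of 5 epithelial markers EPCAM averaged 31.7 CPM in U2932 and 4.56 CPM in Ly1 and the other 4, KRT8, KRT18, KRT19 and CDH1, at most 0.0761 CPM in either line. Replicate 3 of several groups stood apart from replicates 1 and 2. In U2932 DMSO replicate 3, the 33 genes had a median of -0.33 (log2) against the mean of replicates 1 and 2, 25 of them lay below it, and 4 were at least 2-fold lower, as were 3.37% of all tested genes. In the same library all 30 genes of a G2 and mitosis list were below the other replicates, 20 of them at least 2-fold, with a median of -1.18. In Ly1 DMSO replicate 3 the opposite held for that list, with a median of 0.45 and 29 of 29 tested genes above, while the 33 genes had a median of 0.03. The part of cell-cycle composition in the results below was not tested, and values without the replicate 3 libraries stand beside the main results that they change. In bulk RNA, fewer cells expressing a gene and less RNA per cell cannot be told apart.

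**Figure D1:**
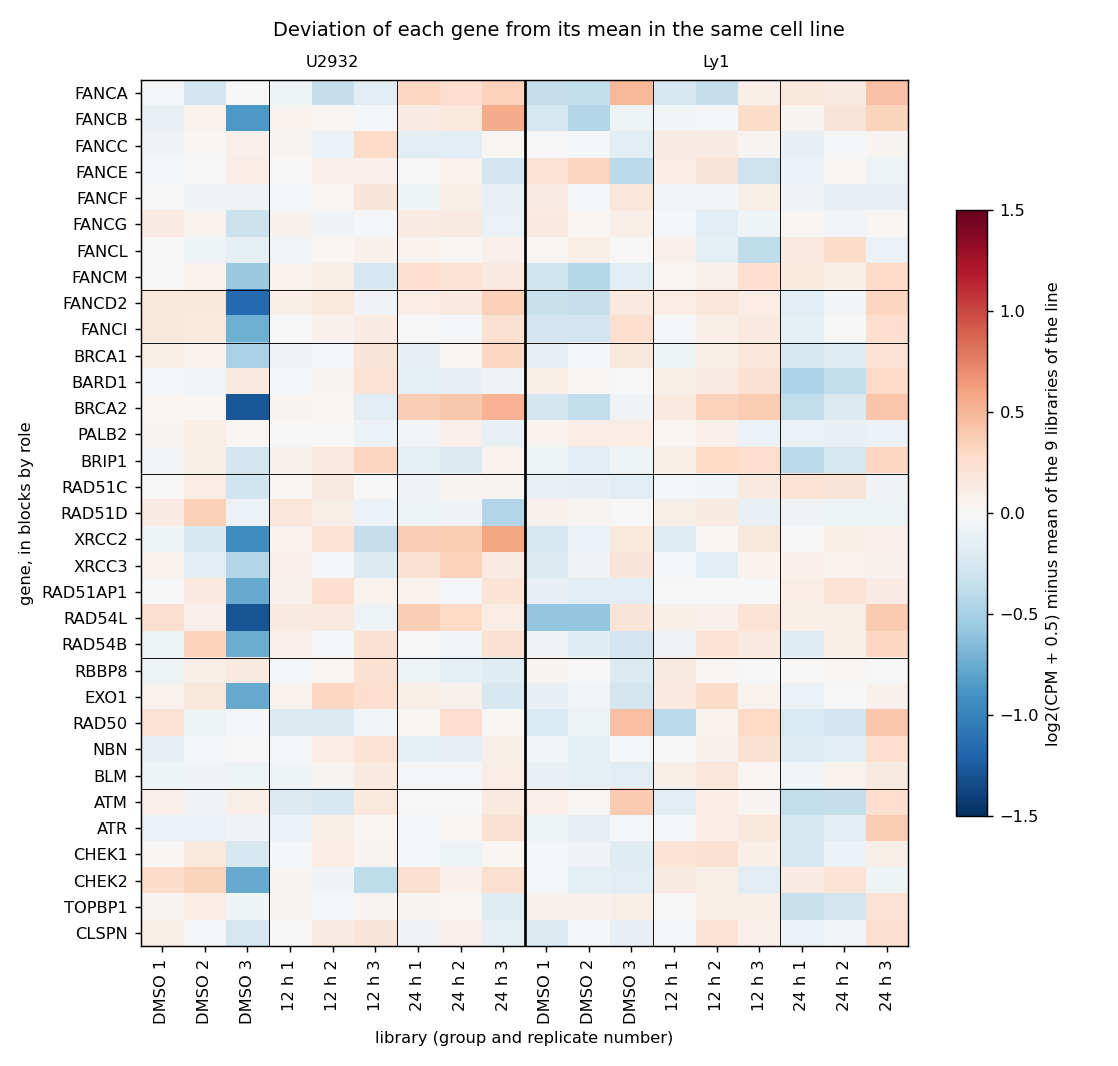
Heat map of the 33 genes (rows, in blocks by role) in the 18 libraries (columns, U2932 left and Ly1 right, DMSO, 12 h and 24 h, replicates 1 to 3), coloured by log2(CPM + 0.5) minus the gene's mean over the 9 libraries of the line. The darkest blue column is U2932 DMSO replicate 3, where RAD54L had 10.8 CPM and FANCD2 32.4 CPM.

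The promoters of these genes were read from RefSeq (GRCh38.p14), as 250 bases before the start and 50 after it. Entries were read for 30 of the 33 genes, and FANCI, NBN and RAD54B were not used here. Only the first entry listed for a gene was read, so other starts were not searched. For BRCA1, on the minus strand, that entry (chr17:43170278-43170577) lies outside the gene's span in the count table, which ends at 43170245. Words of the kind bound by E2F factors (TTTCCCGC, TTTCGCGC, TTTGCCGC or TTTGGCGC, on either strand) were in 7 of the 30, or 23.3%, against 3.33% of 27305 promoters in the table and 65.5% of 29 promoters of an S phase list. The words of the cell-cycle homology region (CHR), TTTGAA or TTCGAA on either strand, were in 3 of the 30, or 10.0%, against 16.6% of all promoters and 68.0% of 25 promoters of the G2 and mitosis list. No word of one kind holds a word of the other. A match is a description of the sequence and not of binding. The following stretches, from 90 bases before to 30 after the start, are shown because in each the E2F-type word, in capitals and read 5′ to 3′ on the gene's strand, lies within 30 bases of the start. The capitals of FANCD2 and CLSPN are the same word at nearly the same place, with its first base 2 and 5 bases before the start.
FANCD2, chr3:10026347-10026466, plus strand: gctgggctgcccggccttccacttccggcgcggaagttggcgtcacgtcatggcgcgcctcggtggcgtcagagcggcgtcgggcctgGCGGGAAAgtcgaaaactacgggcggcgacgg
CLSPN, chr1:35769949-35770068, minus strand: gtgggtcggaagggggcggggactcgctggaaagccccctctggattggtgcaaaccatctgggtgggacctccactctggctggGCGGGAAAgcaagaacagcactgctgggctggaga
TOPBP1, chr3:133661912-133662031, minus strand: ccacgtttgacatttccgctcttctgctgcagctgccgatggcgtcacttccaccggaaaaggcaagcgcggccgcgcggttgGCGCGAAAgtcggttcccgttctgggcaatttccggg
EXO1, chr1:241848114-241848233, plus strand: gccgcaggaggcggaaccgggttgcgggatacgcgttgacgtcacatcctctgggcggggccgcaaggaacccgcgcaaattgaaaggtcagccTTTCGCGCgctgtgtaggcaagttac
XRCC2, chr7:152676112-152676231, minus strand: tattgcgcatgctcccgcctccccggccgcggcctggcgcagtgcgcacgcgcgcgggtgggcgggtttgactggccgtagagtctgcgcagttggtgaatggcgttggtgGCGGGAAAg

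FANCC and FANCA also held an E2F-type word, farther from the start, at -172 in each, and FANCC held another at -46. ATM, shown next because its word is the CHR-type one nearest to a start, held it 20 bases before.
ATM, chr11:108222977-108223096, plus strand: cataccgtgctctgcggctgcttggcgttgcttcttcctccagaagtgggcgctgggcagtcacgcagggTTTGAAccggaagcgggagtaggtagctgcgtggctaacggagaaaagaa

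Levels were compared between genes per kilobase of exon, as CPM per kb with the exon length of GENCODE 29. In DMSO, RBBP8, whose product CtIP starts the resection of broken ends, had the highest mean level of the 33, 35.4 ± 2.74 CPM per kb in U2932 and 39.2 ± 3.68 CPM per kb in Ly1 (SD, n = 3 each). FANCI and TOPBP1 followed with 32.3 ± 10.1 and 24.2 ± 1.46 CPM per kb in U2932 (SD, n = 3), and FANCI does not separate there from RBBP8 or TOPBP1 beyond its spread. FANCI stood above RBBP8 in U2932 replicates 1 and 2 (38.2 and 38.0 CPM per kb, against 32.3 and 36.3) and below it in replicate 3 (20.6 against 37.6), so the first place of RBBP8 in U2932 rests on that library. The lowest levels in U2932 were 0.531 ± 0.223 CPM per kb for RAD54B and 0.552 ± 0.0667 CPM per kb for RAD50, which also do not separate beyond their spread. RAD50, a subunit of the complex with MRE11 and NBN, stood on this scale far below its partner NBN, which had 16.1 ± 0.738 CPM per kb in U2932. On the same strand AC116366.2, which held 0 counts, covers 99.7% of the span of RAD50, and AC004223.3, also with 0 counts, covers 99.9% of that of RAD51D. How reads shared by such genes were counted is not given in the sources used here, so the levels of RAD50 and RAD51D are uncertain. RAD54B overlaps FSBP on the same strand over 56.8% of its span, and XRCC3 and RAD54L overlap KLC1 and LRRC41 on the opposite strand over 93.0% and 54.0%, so these 3 are uncertain too.

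Between the lines in DMSO, 18 of the 33 genes differed at an adjusted p under 0.05 (quasi-likelihood test of edgeR, p-values adjusted by Benjamini and Hochberg's method over 16191 genes), 5 higher and 13 lower in U2932. The background is high: 63% of all tested genes differed, 33.1% higher and 29.9% lower in U2932, so the count of 18 is no result about these genes. Their median log2 fold change, U2932 over Ly1, was -0.15, against 0.02 over all genes tested, and without the replicate 3 libraries it was -0.06, against 0.03. The 5 that were higher in U2932 are FANCA, FANCE, FANCI, BLM and ATR, and the 13 lower are FANCG, FANCM, BRCA1, BRCA2, RAD51D, XRCC2, XRCC3, RAD54B, NBN, ATM, CHEK1, CHEK2 and TOPBP1. By role, 4 of the 7 recombination paralogues and cofactors were lower in U2932 and none higher. Of the 6 checkpoint genes 4 were lower and 1 higher, and of the 8 core complex genes 2 were higher and 2 lower. Without the replicate 3 libraries the recombination paralogues and cofactors had 2 higher and 3 lower, the checkpoint genes 1 and 4, and the core complex genes 2 and 2. The DMSO libraries of the lines did not overlap for 4 genes that were higher and 13 that were lower in U2932, where 34.5% and 30.9% of all tested genes had no overlap in those directions. Without the replicate 3 libraries 21 genes differed (73.4% of all genes), 8 higher (38%) and 13 lower (35.4%), and 16 of the 18 were among them. BRCA1 and XRCC2 were lost, and FANCD2, RAD51C and RAD54L (higher in U2932) and BARD1 and RBBP8 (lower) were gained. The calls of FANCA, FANCE, FANCG, FANCM, RAD51D, XRCC3, BLM, NBN, CHEK1, CHEK2 and TOPBP1 held in every alternative run.

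**Figure D2:**
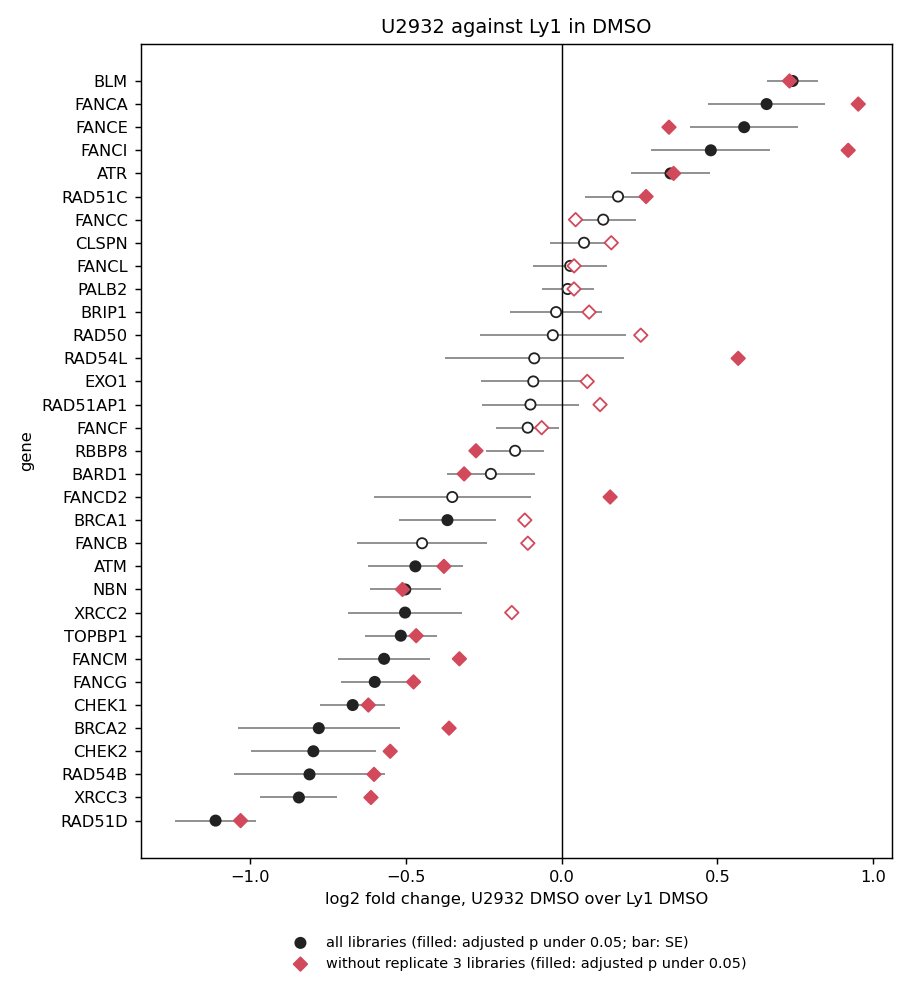
Log2 fold change of U2932 DMSO over Ly1 DMSO (x axis) for the 33 genes (rows, ordered by value), with all libraries (circles, bars are SE) and without the replicate 3 libraries (diamonds), filled where the adjusted p is under 0.05. Among the circles, RAD51D lies farthest left at -1.11 and BLM farthest right at 0.74. FANCD2 and RAD54L change side when replicate 3 is left out.

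Among the core complex genes, FANCA, the subunit most often mutated in Fanconi anaemia, had 127, 105 and 129 CPM in U2932 DMSO (replicates 1 to 3), against 59.9, 59.6 and 109 CPM in Ly1 DMSO. Ly1 replicate 3 is above the lowest U2932 library, so the lines overlap, and the log2 fold change was 0.66 ± 0.19 (SE, adjusted p = 0.00539). Without the replicate 3 libraries it was 0.95 ± 0.09 (adjusted p = 1.8e-07, edgeR). FANCE, the subunit that holds FANCD2 to the complex, had 12.5, 12.8 and 13.8 CPM in U2932 DMSO, against 9.54, 10.3 and 6.10 CPM in Ly1 DMSO, with no overlap, and its log2 fold change was 0.59 ± 0.17, or 0.34 ± 0.11 without replicate 3. FANCG, a scaffold of the complex, had 29.2, 27.7 and 21.4 CPM in U2932 DMSO, against 41.0, 37.9 and 39.8 CPM in Ly1 DMSO. Its log2 fold change was -0.60 ± 0.11 (adjusted p = 9.09e-05, edgeR), and by replicate number the difference was -0.48, -0.44 and -0.88. FANCM, the translocase that anchors the complex on DNA, was lower in U2932 by a log2 fold change of -0.57 ± 0.15 (adjusted p = 0.00245), and by -0.33 ± 0.09 without replicate 3 (adjusted p = 0.00211, edgeR). FANCL, the ubiquitin ligase itself, had 20.5, 19.5 and 18.7 CPM in U2932 DMSO, against 19.0, 19.8 and 18.7 CPM in Ly1 DMSO, and the log2 difference of 0.03 ± 0.12 did not pass the test. FANCB, FANCC and FANCF did not pass it either, with log2 fold changes between -0.45 and 0.13.

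The FANCI-FANCD2 pair is the substrate of that ligase. FANCD2 had 82.5, 82.4 and 32.4 CPM in U2932 DMSO, 78.2, 81.6 and 70.7 CPM at 12 h and 79.4, 81.4 and 93.6 CPM at 24 h. In Ly1 FANCD2 had 74.1, 73.6 and 104 CPM in DMSO, 102, 107 and 102 CPM at 12 h and 84.2, 91.1 and 117 CPM at 24 h. Replicates 1 and 2 of each group lie close together, and replicate 3 is far lower in U2932 DMSO and far higher in Ly1 DMSO. The log2 fold change between the lines in DMSO was -0.35 ± 0.25 with all libraries and 0.16 ± 0.06 without the replicate 3 libraries (adjusted p = 0.238 and 0.0165, edgeR), so its direction turns with them. FANCI had 297, 295 and 160 CPM in U2932 DMSO, 266, 276 and 289 CPM at 12 h and 265, 261 and 310 CPM at 24 h. In Ly1 FANCI had 156, 156 and 227 CPM in DMSO, 186, 204 and 211 CPM at 12 h and 172, 190 and 227 CPM at 24 h. Its DMSO libraries overlap only through replicate 3 of each line. The log2 fold change was 0.48 ± 0.19 with all libraries (adjusted p = 0.0364) and 0.92 ± 0.06 without replicate 3. The call was lost when replicate 1 or 2 of either DMSO group was left out (0.34 to 0.39, adjusted p = 0.133 to 0.165, edgeR), and also by limma voom and with only the DMSO groups fitted.

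BRCA1, the ubiquitin ligase that promotes resection and recruits BRCA2 through PALB2, had 104, 100 and 69.0 CPM in U2932 DMSO, 93.7, 95.3 and 111 CPM at 12 h and 89.0, 99.4 and 121 CPM at 24 h. In Ly1 BRCA1 had 107, 115 and 131 CPM in DMSO, 112, 124 and 133 CPM at 12 h and 98.9, 102 and 136 CPM at 24 h. The DMSO libraries did not overlap between the lines, but those of replicate 1 nearly touched, and the call (log2 fold change -0.37 ± 0.16, adjusted p = 0.0484) was lost without replicate 3 (-0.12, adjusted p = 0.0783). It was lost in 8 alternatives in all, among them leaving out only Ly1 DMSO replicate 2 (-0.38), Ly1 DMSO replicate 3 (-0.25) or U2932 DMSO replicate 3 (-0.20). BRCA2, which acts on single-stranded DNA in recombination, had 19.4, 19.3 and 7.62 CPM in U2932 DMSO, 19.7, 19.5 and 17.1 CPM at 12 h and 24.7, 25.4 and 27.6 CPM at 24 h. In Ly1 BRCA2 had 25.7, 23.9 and 30.0 CPM in DMSO, 34.5, 39.6 and 40.6 CPM at 12 h and 23.9, 26.7 and 41.5 CPM at 24 h. In Ly1 the 12 h libraries are all above the DMSO libraries, and in U2932 the 24 h libraries are. Between the lines in DMSO its log2 fold change was -0.78 ± 0.26 (adjusted p = 0.0151), and -0.36 ± 0.09 without replicate 3 (adjusted p = 0.000308). The call was lost without Ly1 DMSO replicate 3 alone (-0.65, adjusted p = 0.0669), with the replicate block (-0.52, adjusted p = 0.126) and with only the DMSO groups fitted (-0.77, adjusted p = 0.0718, edgeR). BRIP1, a helicase bound to BRCA1, had 50.9, 55.5 and 43.2 CPM in U2932 DMSO, 54.5, 57.9 and 65.7 CPM at 12 h and 47.1, 44.8 and 54.2 CPM at 24 h. In Ly1 BRIP1 had 51.6, 48.0 and 51.8 CPM in DMSO, 58.1, 66.4 and 65.0 CPM at 12 h and 40.6, 45.3 and 66.9 CPM at 24 h. The lines overlap in DMSO, and the log2 difference was -0.02 ± 0.15. BARD1, the partner of BRCA1 in the ligase, and PALB2, the bridge to BRCA2, did not pass the test between the lines with all libraries, with log2 fold changes of -0.23 and 0.02. Without replicate 3 BARD1 was lower in U2932 (-0.31 ± 0.06, adjusted p = 3.27e-05, edgeR).

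RAD51C, RAD51D, XRCC2 and XRCC3 are related proteins that act on single-stranded DNA in recombination. RAD51D had 11.6, 13.7 and 9.94 CPM in U2932 DMSO, against 26.0, 25.5 and 24.6 CPM in Ly1 DMSO. Every U2932 library is below every Ly1 library by a wide margin, and the log2 fold change of -1.11 ± 0.13 (adjusted p = 6.32e-07) was the largest of the 33 in either direction. XRCC3 had 56.7, 48.3 and 40.1 CPM in U2932 DMSO, against 76.2, 84.1 and 100 CPM in Ly1 DMSO. Its log2 fold change was -0.84 ± 0.12 (adjusted p = 9.07e-06, edgeR), and within replicate numbers 1 to 3 the difference was -0.42, -0.79 and -1.31. The overlaps with other genes given above leave the levels of RAD51D, XRCC3 and RAD54L uncertain, and so their differences between the lines. XRCC2 passed with all libraries (-0.50 ± 0.18, adjusted p = 0.0240) but not without replicate 3 (-0.16), nor without Ly1 DMSO replicate 3 (-0.35) or U2932 DMSO replicate 3 (-0.28) alone. RAD51C did the reverse, with 0.18 ± 0.11 over all libraries and 0.27 ± 0.07 without replicate 3 (adjusted p = 0.00061, edgeR). RAD51AP1, which helps the broken strand to capture the sister chromatid, had 30.4, 33.8 and 17.8 CPM in U2932 DMSO, 31.9, 36.5 and 31.7 CPM at 12 h and 31.5, 29.8 and 35.2 CPM at 24 h. In Ly1 RAD51AP1 had 29.9, 28.8 and 29.1 CPM in DMSO, 32.6, 32.6 and 32.5 CPM at 12 h and 35.3, 38.0 and 35.4 CPM at 24 h. In Ly1 the groups did not overlap and stood in the order DMSO, 12 h, 24 h, while in U2932 they overlapped. RAD54L, a motor protein that moves on double-stranded DNA, had 32.1, 28.7 and 10.8 CPM in U2932 DMSO, against 20.5, 20.5 and 35.2 CPM in Ly1 DMSO. Replicates 1 and 2 put U2932 above Ly1 and replicate 3 puts it below, and the log2 fold change was -0.09 ± 0.29 with all libraries and 0.57 ± 0.08 without replicate 3.

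Of the resection and helicase genes, BLM, the helicase that dissolves recombination intermediates, differed most clearly between the lines. It had 104, 105 and 103 CPM in U2932 DMSO, 104, 111 and 120 CPM at 12 h and 107, 106 and 117 CPM at 24 h. In Ly1 BLM had 63.3, 61.9 and 60.9 CPM in DMSO, 73.0, 77.7 and 70.1 CPM at 12 h and 66.8, 71.0 and 75.6 CPM at 24 h. No library of U2932 overlaps one of Ly1, replicate 3 included, and the log2 fold change in DMSO of 0.74 ± 0.08 had the smallest adjusted p of the 33 (2.23e-07). EXO1, the nuclease of long resection, had 55.0, 60.1 and 31.4 CPM in U2932 DMSO, 55.1, 66.3 and 63.5 CPM at 12 h and 56.9, 55.5 and 44.8 CPM at 24 h. In Ly1 EXO1 had 52.6, 55.8 and 47.5 CPM in DMSO, 63.5, 69.7 and 59.8 CPM at 12 h and 53.8, 57.5 and 60.1 CPM at 24 h. The lines overlap in DMSO (log2 difference -0.09 ± 0.17). RBBP8 had a log2 difference of -0.15 ± 0.09 and was lower in U2932 without replicate 3 (-0.27 ± 0.06, adjusted p = 3.09e-05, edgeR). NBN, which tethers ATM to breaks, had 94.3, 101 and 103 CPM in U2932 DMSO, against 143, 134 and 145 CPM in Ly1 DMSO, and its log2 fold change was -0.50 ± 0.11 (adjusted p = 0.000891).

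Among the checkpoint genes, ATM had 146, 133 and 148 CPM in U2932 DMSO, 119, 117 and 154 CPM at 12 h and 138, 138 and 153 CPM at 24 h. In Ly1 ATM had 184, 177 and 229 CPM in DMSO, 155, 189 and 180 CPM at 12 h and 135, 136 and 208 CPM at 24 h. ATR, the kinase of replication stress, had 112, 113 and 116 CPM in U2932 DMSO, 113, 128 and 123 CPM at 12 h and 118, 122 and 141 CPM at 24 h. In Ly1 ATR had 88.9, 86.1 and 92.9 CPM in DMSO, 92.2, 102 and 105 CPM at 12 h and 78.0, 84.3 and 122 CPM at 24 h. The 2 kinases thus lay in opposite directions between the lines in DMSO, without overlap, ATM lower in U2932 (log2 fold change -0.47 ± 0.15, adjusted p = 0.0122) and ATR higher (0.35 ± 0.13, adjusted p = 0.0231). The ATM call was lost without Ly1 DMSO replicate 3 (-0.32, adjusted p = 0.0977, edgeR). The ATR call was lost without Ly1 DMSO replicate 1 (0.34), Ly1 DMSO replicate 2 (0.32) or U2932 DMSO replicate 3 (0.34), with adjusted p between 0.0504 and 0.0695 (edgeR). Their effector kinases were both lower in U2932. CHEK1 had 45.6, 50.4 and 38.1 CPM in U2932 DMSO, 44.5, 48.5 and 46.5 CPM at 12 h and 44.1, 42.7 and 45.8 CPM at 24 h. In Ly1 CHEK1 had 74.5, 72.5 and 66.4 CPM in DMSO, 87.3, 88.4 and 80.3 CPM at 12 h and 62.7, 70.7 and 79.9 CPM at 24 h. CHEK1 is thus lower in each U2932 library than in each Ly1 library, with a log2 fold change in DMSO of -0.67 ± 0.11 (adjusted p = 2.03e-05). CHEK2 had 20.1, 20.9 and 9.58 CPM in U2932 DMSO, 17.01, 15.9 and 12.6 CPM at 12 h and 19.6, 17.5 and 19.6 CPM at 24 h. In Ly1 CHEK2 had 31.2, 28.6 and 28.1 CPM in DMSO, 34.9, 34.0 and 28.4 CPM at 12 h and 34.6, 36.7 and 30.2 CPM at 24 h. Again no library overlaps between the lines, and the DMSO log2 fold change was -0.80 ± 0.20 (adjusted p = 0.00212).

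TOPBP1, the scaffold that activates ATR, had 178, 186 and 165 CPM in U2932 DMSO, 178, 169 and 178 CPM at 12 h and 179, 176 and 151 CPM at 24 h. In Ly1 TOPBP1 had 251, 251 and 255 CPM in DMSO, 238, 255 and 255 CPM at 12 h and 190, 197 and 279 CPM at 24 h. Every U2932 library is below every Ly1 library, and the DMSO log2 fold change was -0.52 ± 0.12 (adjusted p = 0.000809). CLSPN, the adaptor through which ATR activates CHEK1, had 92.8, 85.3 and 73.0 CPM in U2932 DMSO, 88.0, 95.1 and 100 CPM at 12 h and 83.9, 92.0 and 79.3 CPM at 24 h. In Ly1 CLSPN had 74.7, 84.6 and 79.6 CPM in DMSO, 85.1, 100 and 91.4 CPM at 12 h and 80.9, 83.9 and 102 CPM at 24 h. The lines overlap for CLSPN in DMSO, with a log2 difference of 0.07 ± 0.11.

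**Figure D3:**
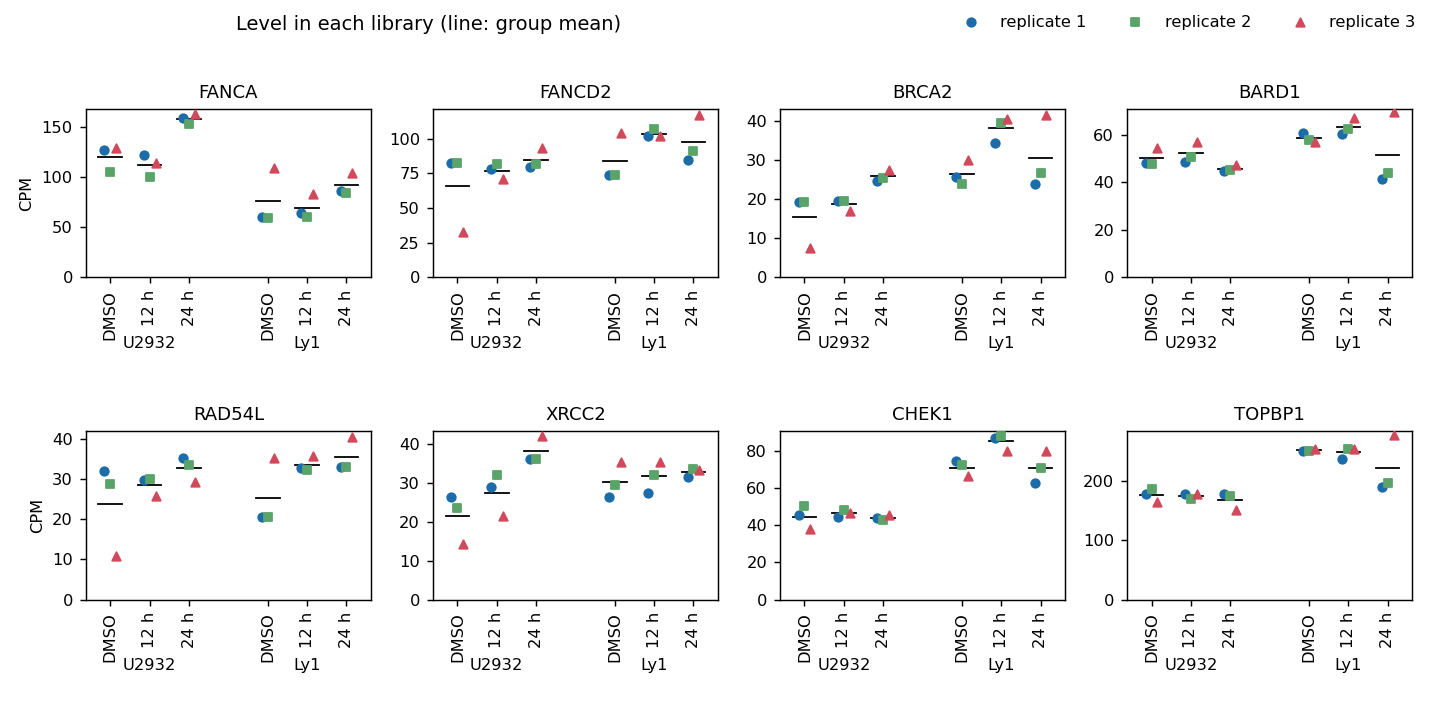
Level in CPM (y axis, from 0) of 8 of the genes in each library, by group (x axis, U2932 left and Ly1 right), with symbols for the replicate number and a line at the group mean. Replicate 3 (triangles) of U2932 DMSO is the lowest library of that line for FANCD2, BRCA2, RAD54L and XRCC2, and FANCA at 24 h in U2932 lies above the other U2932 libraries.

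SGC-GAK-1 in Ly1 for 24 h gave no call among the 33 genes (edgeR, 0 of 33), against 0.55% of the 14005 genes tested. At an unadjusted p under 0.05 there were 7 of the 33, against 16.5% of all genes, and DESeq2 called RAD51AP1 and FANCM, against 4.09% of all genes. The median log2 fold change of the 33 was 0.08, and that of all genes -0.01. It was 0.04 without the replicate 3 libraries, and with 1 library left out it lay between 0.01 (without 24 h replicate 3) and 0.14 (without 24 h replicate 1). FANCM had the smallest adjusted p, 0.0971, with 24.6, 23.5 and 27.1 CPM at 24 h, against 17.8, 16.3 and 19.8 CPM in DMSO, a log2 difference of 0.48 ± 0.12. Next were RAD51AP1 with a log2 difference of 0.31 ± 0.08 and FANCB with 0.47 ± 0.16. The 24 h libraries lay wholly above DMSO for FANCB, FANCM, RAD51AP1, RAD51C and BLM, and wholly below it for FANCF, FANCG, PALB2 and RAD51D, where 8.13% and 7.8% of all genes had no overlap in those directions.

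Ly1 at 24 h depends on replicate 3, for example in BARD1, with 41.4, 44.0 and 69.5 CPM at 24 h, against 61.0, 57.8 and 57.1 CPM in DMSO. Replicates 1 and 2 at 24 h are below every DMSO library and replicate 3 is above them all, as it also is for TOPBP1 and ATR. Without the replicate 3 libraries 17 of the 33 genes were called, but so were 46.2% of all 14024 genes tested then. In that fit 11 were higher at 24 h (22.4% of all genes), RAD54L, FANCA, RAD51C, RAD51AP1, FANCM, FANCD2, FANCB, FANCI, CHEK2, XRCC2 and XRCC3, with log2 fold changes between 0.20 for XRCC3 and 0.70 for RAD54L. The 6 lower (23.9% of all genes) were BARD1 (-0.47 ± 0.07, adjusted p = 2.53e-06), ATM (-0.41 ± 0.07), TOPBP1 (-0.37 ± 0.05), FANCE, BRIP1 and PALB2. Of the 6 checkpoint genes, CHEK2 was thus higher and ATM and TOPBP1 lower. A share of calls this near that of all genes is no result about the 33, and these calls rest on 2 libraries a group. Leaving out only the 24 h replicate 3 gave 6 calls (21.2% of all genes), and leaving out only the DMSO replicate 3 gave 3, RAD54L, FANCM and FANCA (5.67% of all genes).

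For Ly1 at 12 h, 0 of the 33 genes and 0% of all genes were called by edgeR, and DESeq2 called 0 of the 33 (0.671% of all genes). At an unadjusted p under 0.05 there were 6 of the 33, against 6.13% of all genes. The median log2 fold change was 0.15, against -0.01 for all genes, and 23 of the 33 were above 0. In the same comparison the G2 and mitosis list had a median of 0.53 with 29 of 29 above 0, and the S phase list a median of 0.10 with 26 of 35 above 0, and the part of these lists was not tested. The 12 h libraries lay wholly above DMSO for 12 genes, FANCB, FANCC, FANCM, BRCA2, RAD51AP1, RAD51C, BRIP1, BLM, EXO1, NBN, CHEK1 and CLSPN, where 8.15% of all genes did so, and below it for FANCG alone, where 7.03% did. BRCA2 had the largest log2 difference of the 33, 0.52 ± 0.19 (adjusted p = 0.655). Within replicate numbers the medians over the 33 genes were 0.10, 0.14 and 0.08 for replicates 1, 2 and 3, so the medians had the same direction. By replicate number 18 genes were higher in all 3, against 17.8% of all genes. Without replicate 3, 9 genes were higher at 12 h and none was lower (9% of all genes called, 5.23% higher): RAD54L, BRCA2, FANCD2, FANCM, FANCI, BRIP1, EXO1, BLM and CHEK1, from 0.67 ± 0.08 for RAD54L (adjusted p = 5.24e-07, edgeR) to 0.26 ± 0.06 for CHEK1. These calls rest on 2 libraries a group. Between the replicate 3 libraries left out, the log2 difference was 0.02 for RAD54L, -0.04 for FANCD2 and -0.11 for FANCI. For BRCA2, FANCM, BRIP1, EXO1, BLM and CHEK1 it was between 0.20 and 0.43. In the replicate block fit, with the numbers taken as pairing these libraries, 0 were called.

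From 12 h to 24 h in Ly1, 0 of the 33 genes and 0% of all genes were called by edgeR, 1 of the 33 had an unadjusted p under 0.05 (10.3% of all genes), and DESeq2 called none of the 33 (0.0357% of all genes). The median log2 fold change was -0.05, against 0.01 for all genes. It was -0.12 without replicate 3, and with 1 library left out it lay between -0.11 (without 24 h replicate 3) and 0.02 (without 24 h replicate 1). The 24 h libraries lay wholly above those at 12 h for FANCA, RAD51AP1 and XRCC3 (8.41% of all genes) and wholly below for FANCF, PALB2 and CHEK1 (8.32%). Without replicate 3, 14 were called (41.7% of all genes), with FANCA, FANCL and RAD51C higher at 24 h (19.9%) and 11 lower (21.7%), among them BRCA2 (-0.54 ± 0.09), BRIP1 (-0.53 ± 0.08), BARD1 (-0.52 ± 0.07), CHEK1 (-0.39 ± 0.07) and TOPBP1 (-0.34 ± 0.05). FANCD2, BRCA1, EXO1, ATM, ATR and NBN were the other 6, with log2 fold changes from -0.34 for ATM to -0.21 for NBN. Leaving out only the 24 h replicate 3 gave 7 calls, all lower at 24 h (19.5% of all genes called).

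For SGC-GAK-1 in U2932 at 24 h, edgeR called 0 of the 33 genes and 0% of all 15138 genes. At an unadjusted p under 0.05 there were 6 of the 33, against 11.3% of all genes, and DESeq2 called XRCC2 and FANCA (1.04% of all genes). The median log2 fold change was 0.12, against 0.00311 for all genes. FANCA had 159, 153 and 163 CPM at 24 h, against 127, 105 and 129 CPM in DMSO, and all 3 libraries at 24 h are above all in DMSO. Its log2 difference was 0.42 ± 0.10 (adjusted p = 0.232). With the replicate numbers as a block, taken as pairing these libraries, FANCA was higher at 24 h (0.43 ± 0.06, adjusted p = 0.00697, edgeR). So was XRCC3 (0.44 ± 0.08, adjusted p = 0.013, edgeR), with 4.41% of all genes called in that fit, 2.23% higher. FANCA was not called without the replicate 3 libraries, nor with any single library left out. XRCC3 had 63.9, 69.2 and 59.5 CPM at 24 h, against 56.7, 48.3 and 40.1 CPM in DMSO. XRCC2 had 36.2, 36.3 and 42.1 CPM at 24 h, against 26.5, 23.6 and 14.3 CPM in DMSO, with a log2 difference of 0.85 ± 0.22 with all libraries and 0.55 ± 0.08 without replicate 3.

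Without the replicate 3 libraries 3 of the 33 genes were higher in U2932 at 24 h, XRCC2, BRCA2 (0.39 ± 0.08) and XRCC3 (0.36 ± 0.07), and none was lower, where 9.01% of all genes were called, 4.67% higher. The libraries at 24 h lay wholly above DMSO for 9 genes (FANCA, FANCB, FANCL, FANCM, BRCA2, XRCC2, XRCC3, BLM and ATR; 7.95% of all genes) and wholly below it for BARD1 (10.8%). Within replicate numbers the medians over the 33 genes were -0.00322, -0.0147 and 0.28 for replicates 1, 2 and 3. The median above 0 over all libraries thus comes with the low DMSO replicate 3, in which the G2 and mitosis list was also low, and without the replicate 3 libraries it was -0.01. Within each replicate number 10 of the 33 were higher at 24 h (FANCA, FANCB, FANCL, FANCM, BRCA2, XRCC2, XRCC3, RAD54L, BLM and ATR), against 17.8% of all genes.

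**Figure D4:**
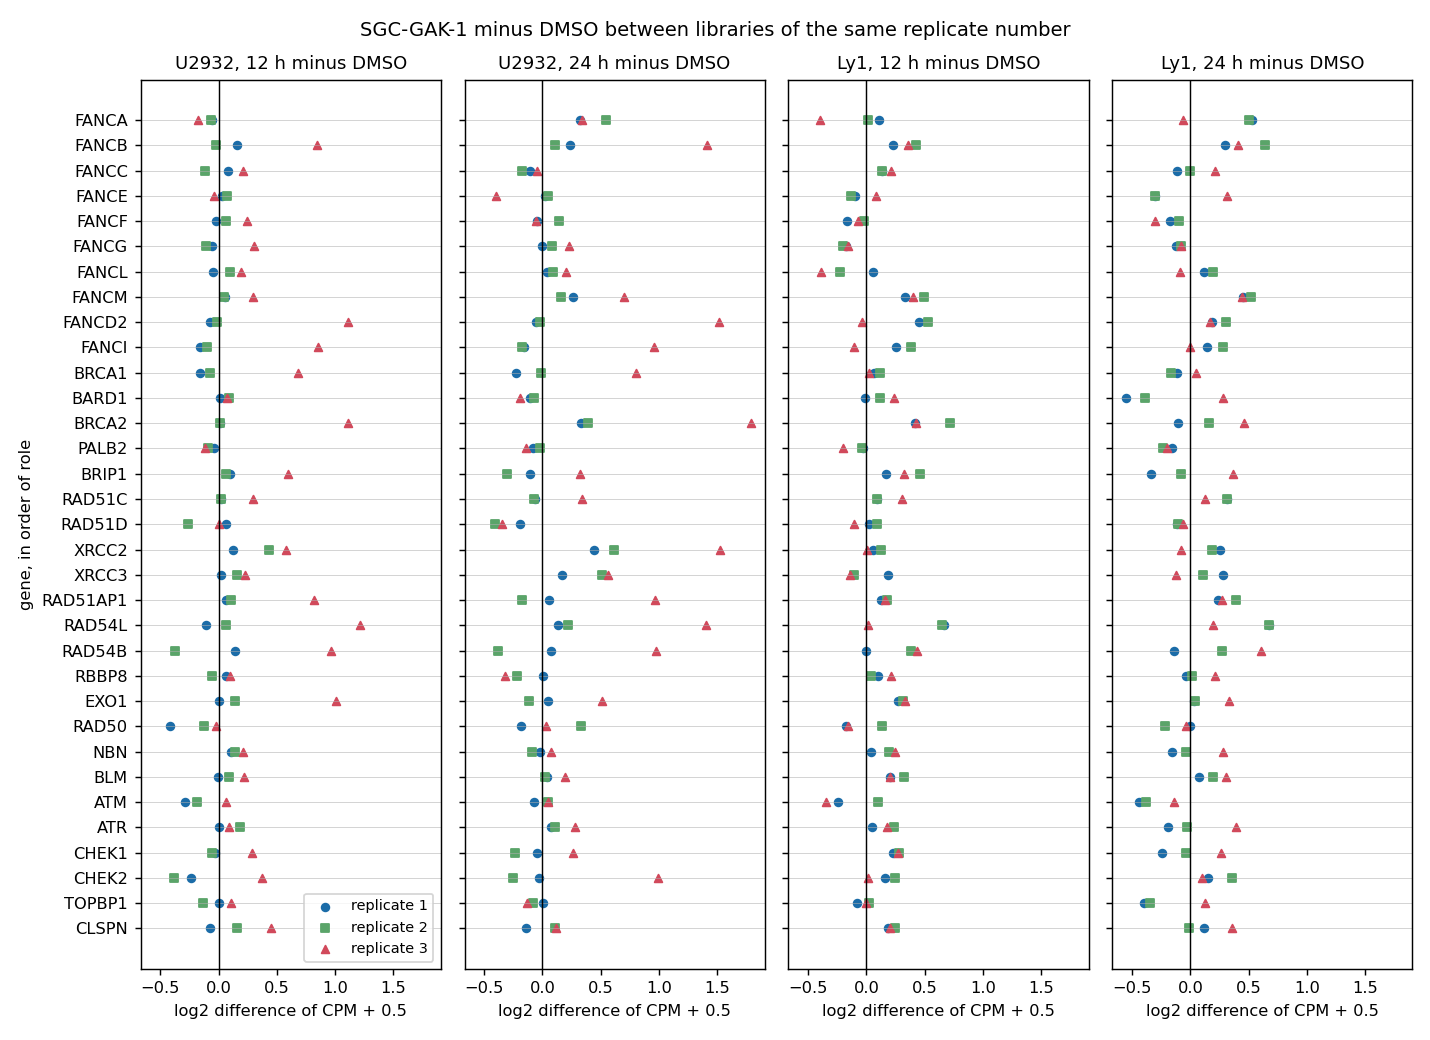
Log2 difference of CPM + 0.5 between SGC-GAK-1 and DMSO libraries of the same replicate number (x axis) for each of the 33 genes (rows, in order of role), in 4 panels for U2932 at 12 h and 24 h and Ly1 at 12 h and 24 h. In U2932 the triangles of replicate 3 lie to the right of replicates 1 and 2 for most genes, with medians of 0.28 at both times, and in Ly1 at 12 h the replicates lie closer together.

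At 12 h in U2932, 0 of the 33 genes and 0% of all genes were called by edgeR, 1 of the 33 had an unadjusted p under 0.05 (3.42% of all genes), and DESeq2 called none of the 33 (0.106% of all genes). The median log2 fold change was 0.11 with all libraries and 0.02 without replicate 3, when XRCC2 was higher (0.29 ± 0.08, adjusted p = 0.0346) and ATM lower (-0.23 ± 0.05, adjusted p = 0.0126), with 2.86% of all genes called, 0.902% higher and 1.95% lower. No gene of the 33 had 12 h libraries wholly above DMSO (3.77% of all genes did), and PALB2 lay wholly below it (4.6%). From 12 h to 24 h, edgeR called 0 of the 33 and 0% of all genes, with 3 of the 33 at an unadjusted p under 0.05 (8.42% of all genes). FANCA, with 159, 153 and 163 CPM at 24 h, against 122, 100 and 114 CPM at 12 h, was called higher with the replicate block (0.52 ± 0.06, adjusted p = 0.00818, 0.997% of all genes called, 0.76% higher) and by DESeq2 (0.489% of all genes). The 24 h libraries lay wholly above those at 12 h for FANCA, FANCB, FANCM, BRCA2, XRCC2, XRCC3, RAD50 and CHEK2 (8.84% of all genes) and wholly below for BRIP1, BARD1 and RBBP8 (10.6%). Without replicate 3 the calls between the times were XRCC2, ATM, BRCA2 and XRCC3 higher and BRIP1 lower at 24 h (6.19% of all genes, 3.84% higher and 2.35% lower). FANCA was not among them, nor was it called with any single library left out.

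The difference between the lines in their response was tested as an interaction. At 24 h edgeR called 0 of the 33 genes and 0% of 16191, with 1 of the 33 at an unadjusted p under 0.05 (8.33% of all genes). At 12 h it called 0 of the 33 and 0%, with none at that p (2.495% of all genes), and DESeq2 called none of the 33 at either time (0.346% of all genes at 24 h and 0.00618% at 12 h). Without the replicate 3 libraries 12 were called at 24 h, where 26.6% of all genes were (16.2% higher and 10.5% lower), and 5 at 12 h, all lower, where 4.5% were (2.76% lower). At 24 h the response of U2932 was above that of Ly1 for TOPBP1 (0.38 ± 0.08, adjusted p = 0.000162), BARD1 (0.43 ± 0.09), ATM (0.45 ± 0.09), BRCA2, XRCC2 and ATR. It was below that of Ly1 for RAD54L (-0.47 ± 0.11), FANCI (-0.34 ± 0.08), RAD51C, RAD51AP1, CHEK2 and FANCD2. With all libraries FANCI and FANCD2 lay on the other side at 24 h, with a median of 0.09 and no call. At 12 h RAD54L, BRCA2, FANCD2, CHEK2 and FANCI had a response in U2932 below that in Ly1, from -0.66 ± 0.11 for RAD54L to -0.42 ± 0.08 for FANCI. When libraries were scaled by total counts alone, the median of all genes in the 24 h difference moved to 0.14, and no gene of the 33 was called.

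Other genes of these pathways were read from lists, whose counts between the lines stand against 33.1% of all genes higher and 29.9% lower in U2932. In DMSO, 2 of 13 tested other Fanconi genes were higher in U2932 and 4 lower, with USP1, which removes the ubiquitin from FANCD2, higher (0.59 ± 0.10), and FAN1 (-0.81 ± 0.18), a crosslink nuclease, and UBE2T (-0.61 ± 0.14), the enzyme that supplies ubiquitin to FANCL, lower. Among 32 other recombination genes 6 were higher and 14 lower, with ZSWIM7 (-1.75 ± 0.21), MCM9 (-1.29 ± 0.15) and BABAM2 (-1.27 ± 0.17) at the far end. Among 21 other checkpoint genes 5 were higher and 6 lower, with H2AX (2.12 ± 0.20), the histone phosphorylated at breaks, and the ligases RNF168 (2.00 ± 0.15) and RNF8 (1.02 ± 0.12), which mark chromatin around breaks, all higher in U2932. End joining genes (17 tested) had 2 higher, XRCC4 (0.96 ± 0.16) among them, and 6 lower, with POLM (-1.14 ± 0.15) and SHLD1 (-1.09 ± 0.11). The p53 targets (23 tested) had 10 higher and 9 lower, with PMAIP1 (3.85 ± 0.14) and FAS (3.18 ± 0.29) higher and TP53INP1 (-2.03 ± 0.31) lower. S phase genes (35 tested) had 6 higher and 9 lower, with TYMS (1.15 ± 0.09) higher and MCM6 (-1.02 ± 0.12) and POLE2 (-0.91 ± 0.19) lower. Of 30 G2 and mitosis genes 3 were higher and 2 lower, with PRC1 (1.23 ± 0.43) higher and ANLN (-1.24 ± 0.24) and CDK1 (-0.71 ± 0.26) lower. With the replicate 3 libraries left out, 24 of the 30 G2 and mitosis genes were higher in U2932 and 3 lower, with a median of 0.54, where 38% of all genes were higher and 35.4% lower. In that setting S phase genes had 11 higher and 12 lower, other recombination genes 10 and 16, end joining genes 5 and 8, other checkpoint genes 7 and 7, other Fanconi genes 3 and 4 and p53 targets 10 and 8. The median log2 fold changes were -0.01 for other Fanconi, -0.14 for recombination, -0.19 for checkpoint, -0.20 for end joining, 0.03 for p53 target, -0.06 for S phase and 0.11 for G2 and mitosis genes with all libraries, beside -0.15 for the 33 genes and 0.02 for all genes. Without replicate 3 they were -0.08 for other Fanconi, -0.20 for recombination, -0.03 for checkpoint, -0.18 for end joining, -0.02 for p53 target and 0.02 for S phase genes, so those of p53 targets and S phase genes turned.

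Under SGC-GAK-1 the G2 and mitosis list was the only one of these 7 lists with a call by edgeR over all libraries. Leaving out the replicate 3 libraries gave calls in all 7 in Ly1 at 24 h, where 46.2% of all genes were called, for example 11 higher and 9 lower of 35 S phase genes and 10 higher and 10 lower of 32 other recombination genes. With those libraries left out, 10 of 23 p53 targets were higher and 1 lower in Ly1 at 12 h (9% of all genes called), and 9 of 35 S phase genes were lower and none higher in U2932 at 24 h (9.01%). In Ly1 at 24 h, 15 of its 29 tested genes were higher and none lower (0.55% of all genes called), with CCNB1 (1.24 ± 0.20), KIF20A (1.21 ± 0.19) and CENPA (1.15 ± 0.16), and its median was 0.75, against 0.08 for the 33 genes. No gene at all was called higher in that comparison when replicate 1 or 2 of either group was left out, with only these groups fitted, or with scaling by totals, so these 15 calls do not hold there. The summed level of that list was 6027, 6137 and 5885 CPM at 24 h in Ly1, against 3210, 3346 and 4813 CPM in DMSO. The 33 genes summed to 2022, 2101 and 2546 CPM at 24 h, against 2105, 2089 and 2330 CPM in DMSO, and the groups overlap. In U2932 the G2 and mitosis list had 0 calls at 24 h with a median of 0.42, or -0.02 without replicate 3, and its summed level was 4471, 4592 and 5681 CPM at 24 h, against 4682, 4775 and 1976 CPM in DMSO. The 33 genes summed there to 2094, 2103 and 2207 CPM at 24 h, against 2104, 2101 and 1747 CPM in DMSO. Both sums are at their lowest in U2932 DMSO replicate 3. In Ly1, with the replicate 3 libraries left out, 27 of 29 G2 and mitosis genes were higher at 24 h (22.4% of all genes) and 27 at 12 h (5.23%). In U2932, of 30 genes, 1 was higher and 3 lower at 24 h (9.01% of all genes called) and 3 were higher and none lower at 12 h (2.86% called). The part of this list in the values of the 33 genes was not tested. In the other 6 lists the genes with the smallest p at 24 h did not pass, for example UBE2T (0.44 ± 0.15) and H2AX (0.75 ± 0.19) in Ly1 and SLX4 (0.35 ± 0.09), GEN1 (0.42 ± 0.11) and POLQ (0.90 ± 0.31) in U2932.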

How the data were processed

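RNA was measured by poly(A) RNA-seq in 18 libraries of U2932 and Ly1, with 14 PCR cycles and 2 sequencing runs combined, per the labels' protocols. Per the submitters' processing notes, the authors used cutadapt, STAR, Picard and hg38; how duplicates were handled, the annotation, strand use, the counter and all versions were not given in the sources used here. In the deposited table are whole-number read counts per gene for 60656 genes, 27386 of them 0 in all libraries; the authors' counts are not normalized. Counting error alone limits low values to a floor of 3 counts, 0.102 to 0.133 CPM on unscaled totals. Groups come from the labels, and no library was left out of the first results.

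Genes were tested with edgeR 4.0.16 (TMM scaling, filterByExpr, robust quasi-likelihood F test, Benjamini-Hochberg adjustment over all tested genes, threshold 0.05), each line in its own fit of 9 libraries (14005 genes in Ly1, 15138 in U2932) and the lines together in a fit of 18 (16191 genes). Apart from that floor, CPM are counts over TMM-scaled library totals. SE is the log2 fold change divided by the root of F. Log2 differences between single libraries used CPM + 0.5. Alternatives ran in DESeq2 1.42.0 and limma 3.58.1 under R 4.3.3, and tables and plots in matplotlib 3.10.9, numpy 2.4.6 and pandas 2.3.3 under Python 3.11.15. The fit was tested on simulated data with the same spread for all genes and no effect of replicate. That test does not cover replicates that stand apart, as they do here. Replicates were not duplicates: chi-square per degree of freedom was 3.35 to 95.3 between libraries of a group.

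The 33 genes, the other lists, the tests and the alternatives were chosen with earlier results of these data known, so no list is independent evidence. 2 genes of the other lists are not reported here, and their lists were counted without them. Genes named by sample are 14 members fixed in the rule (FANCD2, FANCI, BRCA1, BRCA2, RAD51AP1, BRIP1, BLM, EXO1, ATM, ATR, CHEK1, CHEK2, TOPBP1 and CLSPN), up to 8 called members with the smallest adjusted p in a comparison, and up to 3 called genes of each other list, or up to 2 with the smallest p. FANCA, FANCE, FANCL, FANCM, XRCC2, RAD54L, BARD1 and the members named in counts were named after their values were seen.

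The labels do not say what a replicate number means, so its pairing of libraries was judged by correlating, gene by gene, deviations from group means (limit 0.1). In U2932 every comparison was taken as paired, 24 h with DMSO (0.456 to 0.566), 12 h with DMSO (0.606 to 0.762) and 24 h with 12 h (0.575 to 0.712). In Ly1 12 h with DMSO was taken as paired (0.337 to 0.569), but neither 24 h with DMSO (0.0778 to 0.292) nor 24 h with 12 h (0.0304 to 0.579). Only libraries of the same replicate number were compared. A replicate 3 that stands apart in both groups can raise these values, so they do not show that the numbers pair libraries. The pairing is an assumption drawn from the data, not from the labels. Alternatives were DESeq2, limma voom, scaling by totals only, no filter, the replicate block, leaving out each library, leaving out all replicate 3 libraries, and fitting only the groups compared.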

Additional observations from a re-analysis of the deposited data

How the results depend on the processing

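Counts below are of the 33 genes called, against 0 in every treatment comparison and 18 between the lines in DMSO with all libraries. Without all replicate 3 libraries they were 17 for Ly1 24 h, 9 for Ly1 12 h, 14 for Ly1 24 h against 12 h, 3 for U2932 24 h, 2 for U2932 12 h, 5 for U2932 24 h against 12 h, 12 and 5 for the difference between lines at 24 h and 12 h, and 21 between the lines. Among genes called in either setting, the log2 fold change then turned for BRIP1 in Ly1 at 24 h (-0.21), for RAD54L (0.57) and FANCD2 (0.16) between the lines, and for FANCD2 (-0.24) and FANCI (-0.34) in the difference at 24 h; the cause was not tested. Uncalled values turned too, for example in U2932 FANCD2 (-0.02) and FANCI (-0.15) at 24 h and FANCD2 (-0.04) and FANCI (-0.12) at 12 h. Leaving out 1 library at a time gave 0 to 6 calls for Ly1 24 h, 0 to 1 for Ly1 12 h, 0 to 7 for Ly1 24 h against 12 h, 0 in the U2932 and difference comparisons and 14 to 18 between the lines. Among these runs with 1 library left out, those with calls in Ly1 all lacked a replicate 3 library. With the replicate block the counts were 1 for Ly1 24 h (FANCM, where the numbers were not taken as paired) and 2 for U2932 24 h. They were 1 for U2932 24 h against 12 h and 16 between the lines, where BRCA1, BRCA2 and XRCC2 were lost and RBBP8 gained. DESeq2 gave 2 for Ly1 24 h, 2 for U2932 24 h, 1 for U2932 24 h against 12 h and 17 between the lines, and no filter gave 2 for Ly1 24 h, 1 for Ly1 12 h (BRCA2), 1 for U2932 24 h, 1 for U2932 24 h against 12 h and 19 between the lines. Scaling by totals and limma voom gave 0 under treatment and 17 between the lines, and fitting only the groups compared gave 0 and 13.

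Over all genes, calls for Ly1 24 h were 77, against 573 with DESeq2, 1 by totals, 794 with no filter, 0 with only these groups, 275 with the block and 6483 without replicate 3. For U2932 24 h they were 0, against 157, 0, 57, 0, 667 and 1369 in the same order. The lowest counts of the 33 in any library were 41 for RAD54B, 82 for FANCB and 87 for RAD50, all above the floor of 3.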
